A study of Mus musculus with 16 samples.

Results

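Open chromatin was described at 9 of the 21951 protein-coding genes of the mouse annotation, the facilitative glucose transporter genes Slc2a1, Slc2a2, Slc2a3, Slc2a4, Slc2a5, Slc2a8, Slc2a9, Slc2a10 and Slc2a12. They were chosen by name, and their peaks by position: a promoter region had its summit within 3000 bp of an annotated start of the gene, and a further set lay in the gene body extended by 10 kb on either side. ATAC-seq, in which a transposase cuts accessible DNA, had been run on kidney, lung, heart, spleen, liver, muscle and both white and brown adipose tissue of male C57BL/6 mice that were either fed or fasting. Per the methods of the study the mice were acquired at 12 weeks of age, fasting lasted 24 hours, and tissue of 3 mice of a group was pooled, so each of the 16 libraries was 1 pool of 1 tissue in 1 state, with no replicate and with the animals of a state shared by all its tissues. No group carried a transgene, deletion or drug.

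Facilitative transporters let sugars move down their concentration gradient through the membrane. Slc2a1 (GLUT1) serves basal uptake in most cells, Slc2a3 (GLUT3) has high affinity and is known from neurons and white blood cells, Slc2a4 (GLUT4) moves to the surface of muscle and fat cells after insulin, and Slc2a2 (GLUT2) is the high-capacity carrier of hepatocytes, renal tubule and pancreatic beta cells. Slc2a5 (GLUT5) carries fructose, Slc2a9 (GLUT9) carries urate in liver and kidney, Slc2a8 (GLUT8) sits mainly on membranes inside the cell, Slc2a10 (GLUT10) is mutated in arterial tortuosity syndrome, and Slc2a12 (GLUT12) is a further transporter of muscle and fat.

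Levels are given as a percentile: the regions of a library were ranked by the significance of the peak (-log10 p) within that library, so that 100 is its strongest region and 0 means that no peak was listed there. A promoter was called open where its region had a q-value under 0.01. The library with the fewest peak regions over the 9 extended gene bodies was fasting lung with 73 regions and the one with the most was fed spleen with 152. The lists held 149835 to 239804 regions in all. The depth is not stated, but the background tag number behind each peak, which scales with depth, ran from 2.80 in fed liver to 12.8 in fed brown adipose, and a position at background needed 9 tags in fasting liver and 35 in fed brown adipose to be listed. A percentile of 0 is therefore no evidence of closed chromatin. Marker lists of 5 genes had their mean promoter percentile highest in their own tissue in 7 of the 8 cases. The white adipose list stood at 88.7 and 91.9 in white adipose and at 94.0 in fasting brown adipose. The heart list reached only 63.0 and 79.6 in heart. In fed white adipose the list of epididymis genes had a mean of 75.6, against 31.7 in fasting white adipose. Adam7, Crisp1 and Spint4 had a promoter peak in fed white adipose and none in fasting. Lcn5 went from 88.2 to 62.7, while Rnase10 went the other way, from 91.8 to 95.7. Adam7 and Spint4 had a promoter peak in fed white adipose alone. The mean of the list was 35.8 (fasting heart) or less in every other library. Crisp1 also stood at 74.6 in fed spleen, and Lcn5 and Rnase10 were listed in several other tissues. The part of the epididymis list in the white adipose values below was not tested. From fed to fasting the endothelium list went from 59.1 to 73.7 in white adipose, from 59.5 to 71.7 in brown adipose and from 64.0 to 77.0 in muscle, with all 5 genes listed in each, and its part in the fasting minus fed values of these tissues was not tested.

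The DNA at sites described below, or just upstream of a start, is shown first. It was read from the GRCm38.p6 reference (RefSeq) along the strand of each gene, 201 bases per sequence. Capitals mark matches to the motifs searched on both strands, which were GGGCGG (the GC box), CACGTG (the E-box), TAAAAATA (the MEF2 core), GTTAATNAT (HNF1), CAAAGTCCA (HNF4), TCAAGGTCA (ESRR), GAGGAAGT (PU.1), TGACGTCA (CRE), TTGCGCAA (C/EBP) and TACGTG (HIF). The bases just upstream of the outermost Slc2a2 start, which was open in liver and kidney, and those at the upstream site of muscle are as follows.
Slc2a2 start, chr3:28697702-28697902, plus strand: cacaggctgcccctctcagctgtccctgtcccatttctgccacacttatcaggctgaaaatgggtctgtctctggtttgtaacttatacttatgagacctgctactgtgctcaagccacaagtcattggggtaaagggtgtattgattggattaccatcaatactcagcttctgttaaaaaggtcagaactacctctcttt
Slc2a2 muscle site, chr3:28696330-28696530, plus strand: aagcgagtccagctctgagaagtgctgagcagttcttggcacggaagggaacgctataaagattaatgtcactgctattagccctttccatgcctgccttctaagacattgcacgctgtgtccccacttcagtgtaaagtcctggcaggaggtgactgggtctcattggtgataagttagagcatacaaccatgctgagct

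Neither Slc2a2 sequence held any of the motifs. The intron sequence of Slc2a4 holds a GC box on its other strand, as do 15.4% of promoter and 4.61% of distal regions. Of the pair of Slc2a4 sequences below, the upstream one lies at a site that was higher in muscle, heart and both adipose tissues than in the rest, and the intron one at a site that was highest in muscle, heart and brown adipose. The upstream one holds the MEF2 core, which 1.63% of all merged promoter regions and 2.12% of all merged distal regions hold within the same length. That site was picked for printing because it holds this motif. The match is therefore no result, and these shares do not measure how rare it is.
Slc2a4 upstream site, chr11:69948546-69948746, minus strand: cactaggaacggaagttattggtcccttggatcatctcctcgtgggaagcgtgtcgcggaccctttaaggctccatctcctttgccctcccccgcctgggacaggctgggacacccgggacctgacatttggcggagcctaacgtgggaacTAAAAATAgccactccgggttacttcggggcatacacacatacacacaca
Slc2a4 intron site, chr11:69947313-69947513, minus strand: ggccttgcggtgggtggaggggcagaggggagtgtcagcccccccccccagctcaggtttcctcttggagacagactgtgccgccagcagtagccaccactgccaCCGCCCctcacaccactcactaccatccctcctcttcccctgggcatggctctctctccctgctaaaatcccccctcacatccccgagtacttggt

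The next sequences lie just upstream of the first base of Slc2a8 (open everywhere), Slc2a9 (open in liver) and Slc2a10 (no peak in liver), at the adipose site of Slc2a9 and at the kidney site of Slc2a12. The liver start of Slc2a9 holds a PU.1 match, as do 2.45% of promoter regions, and the other 4 hold no match. The Slc2a10 sequence does not reach the promoter summit of that gene, which lay 97 bp into it in fasting lung. Round that summit lies a GC box on either strand, at -21 and 4 bp. A GC box is held by 15.4% of promoter regions.
Slc2a8 start, chr2:32982084-32982284, minus strand: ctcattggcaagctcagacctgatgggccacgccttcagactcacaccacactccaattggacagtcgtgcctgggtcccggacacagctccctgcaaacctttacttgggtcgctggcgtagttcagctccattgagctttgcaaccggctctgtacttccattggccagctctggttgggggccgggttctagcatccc
Slc2a9 liver start, chr5:38503144-38503344, minus strand: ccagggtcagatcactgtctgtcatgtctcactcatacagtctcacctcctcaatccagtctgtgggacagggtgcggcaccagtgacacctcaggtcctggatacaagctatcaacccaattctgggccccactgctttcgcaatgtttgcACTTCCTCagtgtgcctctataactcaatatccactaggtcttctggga
Slc2a9 adipose site, chr5:38504247-38504447, minus strand: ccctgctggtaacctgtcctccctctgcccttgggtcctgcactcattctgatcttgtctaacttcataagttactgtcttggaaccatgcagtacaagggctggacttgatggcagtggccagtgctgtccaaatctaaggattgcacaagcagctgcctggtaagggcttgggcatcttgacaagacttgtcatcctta
Slc2a10 start, chr2:165503586-165503786, plus strand: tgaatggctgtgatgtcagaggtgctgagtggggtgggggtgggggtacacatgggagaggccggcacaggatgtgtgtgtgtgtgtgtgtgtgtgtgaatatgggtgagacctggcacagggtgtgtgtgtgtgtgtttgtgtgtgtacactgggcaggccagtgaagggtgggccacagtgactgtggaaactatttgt
Slc2a12 kidney site, chr10:22648781-22648981, plus strand: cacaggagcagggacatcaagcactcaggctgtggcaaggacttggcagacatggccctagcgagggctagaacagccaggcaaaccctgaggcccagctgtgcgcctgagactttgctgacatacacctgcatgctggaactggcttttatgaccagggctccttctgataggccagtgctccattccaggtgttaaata

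The last 3 are the strongest sites of Slc2a1 beyond the promoter window in muscle, liver and spleen. The spleen sequence holds a PU.1 match on each strand, 10 and 22 bp from the summit, and a HIF match. This site lies within 3000 bp of an annotated start of another gene, so it counts with the promoter regions. A PU.1 match is held by 2.45% of promoter and 2.57% of distal regions. The share with a pair was counted for distal regions alone (0.0474%), so it is no background for this site. A match is a run of letters and no evidence that a factor was bound.
Slc2a1 muscle site, chr4:119102256-119102456, plus strand: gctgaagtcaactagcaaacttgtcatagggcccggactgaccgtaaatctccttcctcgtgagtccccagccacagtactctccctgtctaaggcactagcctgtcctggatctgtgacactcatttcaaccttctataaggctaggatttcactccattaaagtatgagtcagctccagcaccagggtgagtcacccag
Slc2a1 liver site, chr4:119119430-119119630, plus strand: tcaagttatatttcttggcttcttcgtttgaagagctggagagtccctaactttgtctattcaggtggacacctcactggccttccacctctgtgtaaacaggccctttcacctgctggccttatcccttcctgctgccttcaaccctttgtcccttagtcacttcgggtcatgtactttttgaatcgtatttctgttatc
Slc2a1 spleen site, chr4:119127297-119127497, plus strand: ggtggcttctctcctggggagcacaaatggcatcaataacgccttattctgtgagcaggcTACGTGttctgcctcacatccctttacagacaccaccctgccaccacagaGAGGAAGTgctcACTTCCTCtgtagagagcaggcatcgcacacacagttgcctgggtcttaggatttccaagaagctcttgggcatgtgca

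Most transporter promoters were open everywhere. Of the 9 genes, 7 had an open promoter in all 16 libraries, where 59.7% of protein-coding genes did. Slc2a2 was open in 8 libraries and Slc2a10 in 12. Slc2a1 had the highest promoter percentile of the 9 genes in 9 libraries, Slc2a8 in 6 and Slc2a9 in 1, which was fasting liver.

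**Figure D1:**
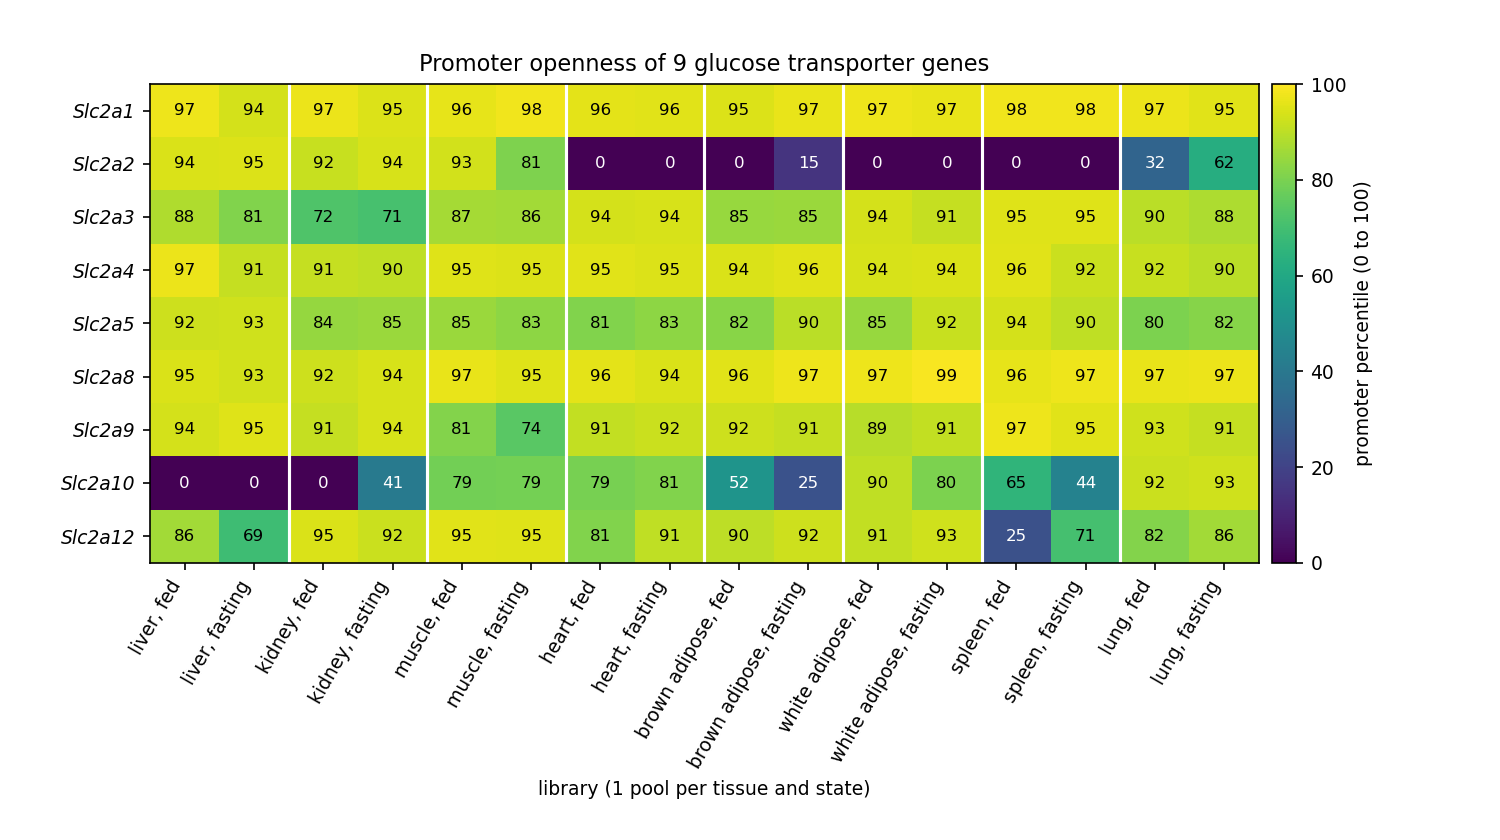
Promoter percentile (0 to 100, printed in each cell) of the 9 genes (rows) in the 16 libraries (columns, fed and fasting side by side for each tissue, 1 pool each). Slc2a1 and Slc2a8 stayed at 92.3 or higher in every library, while Slc2a2 was at 0 in heart, white adipose and spleen and Slc2a10 at 0 in liver.

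Slc2a2 (chr3:28697903-28731359, plus strand) had the promoter with the widest range across tissues, together with Slc2a10. Its promoter percentile was 94.3 in fed and 94.9 in fasting liver and 91.7 and 94.1 in kidney. Muscle followed with 93.2 and 80.6, and lung with 32.1 and 62.4. No promoter peak was listed in either library of heart, spleen or white adipose, and in brown adipose only the fasting library had one, at 15.2. Liver and kidney together had a mean 70.1 points above the other 6 tissues, and of their 4 libraries only fed kidney lay below a library of another tissue, fed muscle (exact permutation test over the 28 choices of 2 tissues, two-sided p = 0.0357, the smallest these choices can give). After Benjamini-Hochberg (BH) adjustment over the 19718 genes tested it was 0.243. With this test, 2.79% of genes were higher and 11.9% lower in liver and kidney. The call was lost when regions were ranked by fold enrichment (58.9 points, exact p = 0.107), with the starts of protein-coding transcripts alone (73.1 points, exact p = 0.0714) and without spleen, heart or white adipose (65.4 points, exact p = 0.0952 for each).

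The peaks of the tissues lay at different places in Slc2a2. In liver, kidney and lung the promoter value was set near an internal start, at a site 24088 bp into the gene, where kidney had 90.3 and 94.1. At the outermost start, 49 bp into the gene, the site stood at 93.2 and 94.7 in fed and fasting liver and at 83.7 and 81.0 in kidney, with 60, 118, 170 and 147 tags, and no peak was listed there in the other 12 libraries, muscle included. The muscle peak lay 1473 bp upstream, with 153 tags (15.7-fold over the expected number) in the fed and 101 tags (8.83-fold) in the fasting pool, and liver (78.9 and 77.4) and kidney (79.1 and 81.9) also had it. A further site lay in an intron 16433 bp from the start and was seen in liver (96.7 and 95.2) and kidney (77.2 and 70.5) alone.

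Liver and kidney also differed at Slc2a2. A pair of intronic sites 27301 and 27609 bp from the start was listed in liver (85.2 and 76.3, then 82.8 and 94.3) and in no other tissue. A site 23505 bp from the start stood at 85.6 in both kidney libraries, at 22.0 in fasting liver and was not listed in fed liver. Downstream of the gene, a site 39463 bp from the start was listed in kidney (94.7 and 88.9) alone, while a site 39160 bp from the start was listed in liver (92.3 and 97.1), kidney (90.4 and 94.2), muscle (59.7 and 68.9) and fed spleen (51.9).

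**Figure D2:**
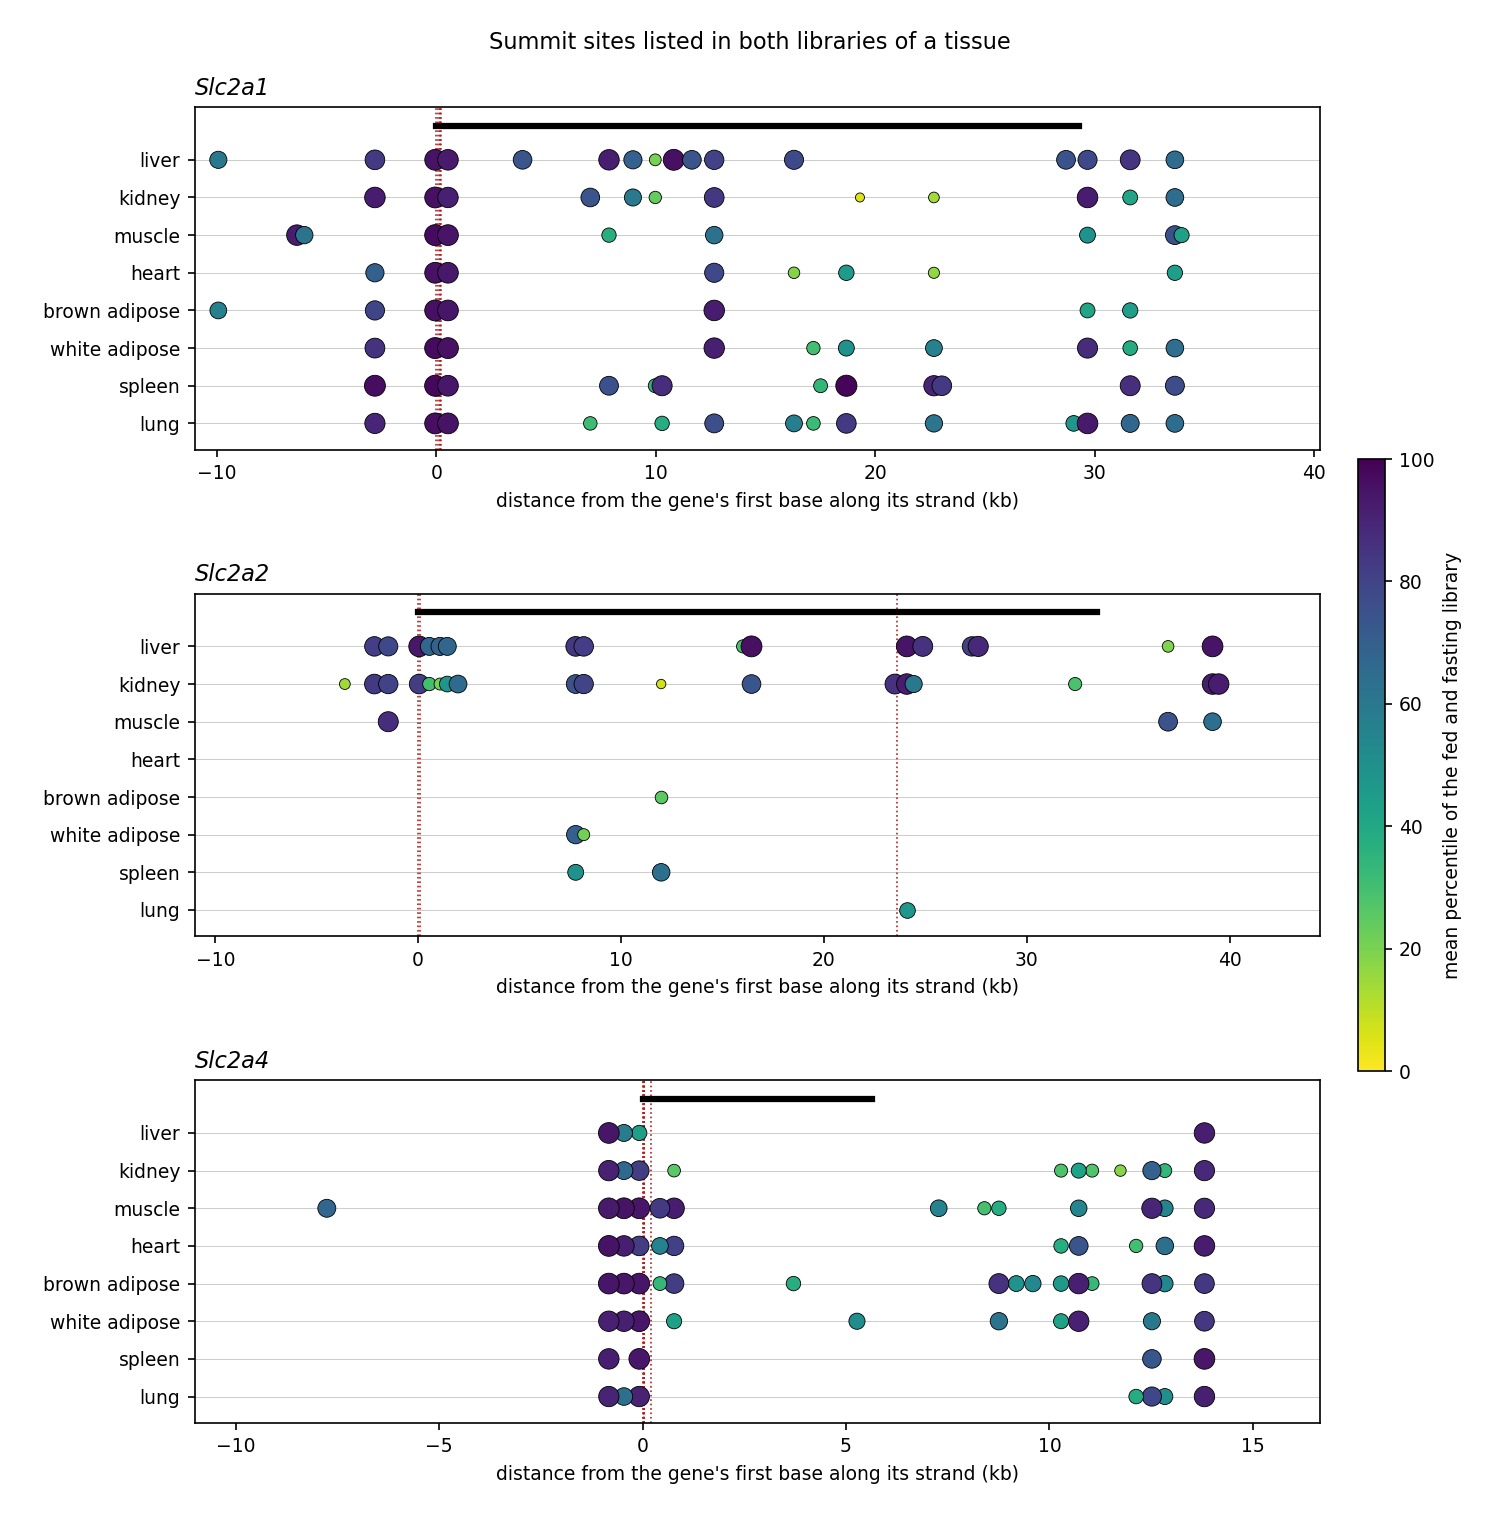
Summit sites (dots) in the extended bodies of Slc2a1, Slc2a2 and Slc2a4 by distance from the first base of the gene along its strand (kb, x axis) and by tissue (y axis). A dot is drawn where both libraries of a tissue list the site, its size and colour give their mean percentile, dotted lines are annotated starts and the bar is the gene. At Slc2a2 the start site is filled in liver and kidney only, and muscle has its dot 1473 bp upstream.

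Slc2a10 (chr2:165503787-165519917, plus strand) was lowest where Slc2a2 was highest, in liver and kidney. Its promoter percentile was 92.0 in fed and 92.8 in fasting lung, 90.4 and 80.2 in white adipose, 79.5 and 81.0 in heart and 78.6 and 79.3 in muscle. It was 65.3 and 44.4 in spleen and 51.6 and 25.0 in brown adipose. No peak was listed in either liver library or in fed kidney, and fasting kidney had 40.8. Liver and kidney lay 61.5 points below the other 6 tissues (exact permutation test, two-sided p = 0.0357, BH 0.243 over all genes), where 11.9% of all genes were lower. Only the libraries of brown adipose and kidney overlapped. The call was lost after thinning to equal depth (-39.0 points, exact p = 0.25) and with a q-value under 1e-06 (-40.3 points, exact p = 0.214). The endothelium list stood at 92.7 and 91.2 in fed and fasting heart, 88.5 and 88.0 in lung, 42.5 and 38.0 in kidney and 75.9 and 73.9 in liver. It was 64.0 and 77.0 in muscle, 59.1 and 73.7 in white adipose, 59.5 and 71.7 in brown adipose and 65.2 and 70.5 in spleen. The part of the endothelium list in the Slc2a10 values was not tested. All Slc2a10 promoter peaks but that of fed heart had their summit 93 to 126 bp into the gene. In liver and kidney the gene was open elsewhere: a site in a coding exon, 11568 bp from the start, stood at 83.6 and 81.4 in liver and 73.6 and 71.1 in kidney, with 23.0 in fed muscle as the only other listing.

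Slc2a3 (chr6:122727809-122801640, minus strand) was lowest in kidney. Its promoter percentile was 72.3 in fed and 70.7 in fasting kidney, 87.9 and 81.2 in liver, 84.6 and 84.8 in brown adipose and 86.5 and 86.3 in muscle. It was 89.8 and 87.8 in lung, 93.7 and 91.1 in white adipose, 93.6 and 94.1 in heart and 95.1 and 95.0 in spleen. The kidney pair lay below all 14 other libraries. The list of blood cell genes was highest in spleen too, at 58.8 and 67.3, and at 0 to 52.0 in the other libraries, and its part was not tested. Spleen was the highest tissue and its pair stood apart from that of heart, next in order. Liver and kidney lay 12.2 points below the others (exact permutation test, two-sided p = 0.0357, BH 0.243 over all genes), where 11.9% of all genes were lower. The call was lost by fold ranking (-6.68 points, exact p = 0.143) and after thinning to equal depth (-10.7 points, exact p = 0.25).

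The start of Slc2a3 that the annotation places furthest upstream had a peak in all tissues, while a site at an inner start, 58994 bp downstream, varied more between them. The summit at the outer start ranged from 67.5 in fasting kidney to 95.0 in fasting spleen. At the inner start, spleen had 93.6 and 92.2 and lung 83.3 and 69.9. Muscle (67.8 and 57.8), heart (56.7 and 57.4) and white adipose (50.7 and 65.1) were lower, and liver, kidney and fed brown adipose had no summit within 150 bp. Liver and kidney lay 48.4 points below the other tissues over the merged region there (exact permutation test, two-sided p = 0.0357). Such tests across 379519 merged regions called 5.15% higher and 1.31% lower in liver and kidney, and the smallest BH value was 0.553. Further inside, a site 5967 bp from the outer start stood at 92.9 and 94.0 in muscle, 78.3 and 87.5 in brown and 85.9 and 83.8 in white adipose, and was not listed in liver, kidney or lung.

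Slc2a4 (chr11:69942539-69948188, minus strand) was open in every library at nearly the same percentile, from 89.6 in fasting lung to 97.1 in fed liver. Its values were 95.3 and 94.7 in fed and fasting muscle, 95.4 and 94.6 in heart, 94.2 and 95.5 in brown and 94.0 and 94.3 in white adipose. The other tissues had 97.1 and 91.2 (liver), 95.6 and 92.1 (spleen), 91.6 and 89.6 (lung) and 91.3 and 90.3 (kidney). The libraries of the 4 insulin-responsive tissues lay within the range of the others, and their mean was 2.39 points higher (exact permutation test over the 70 choices of 4 tissues, two-sided p = 0.0286, the smallest possible, BH 0.432 over all genes). By this test 3.82% of genes were higher and 2.79% lower. The difference was -8.17 points when regions were ranked by fold enrichment and -0.25 points after thinning to equal depth, so the direction for the whole promoter depended on the scale.

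The sites inside the Slc2a4 promoter differed more than the whole. The most distal site, 829 bp upstream of the nearest start, was shared by all tissues (89.0 to 97.1). The site 458 bp upstream, which holds the MEF2 core, stood at 95.3 and 94.7 in muscle, 92.7 and 90.9 in heart, 92.3 and 95.5 in brown and 91.4 and 91.0 in white adipose. It was 49.4 and 67.4 in liver, 67.5 and 65.0 in kidney, 63.3 and 64.2 in lung, and in spleen not listed in the fed and 80.1 in the fasting library, so the 8 libraries of the insulin-responsive tissues all lay above the other 8. The intron site 561 bp downstream of the nearest start was listed at 92.8 and 91.2 in muscle, 79.7 and 82.1 in heart, 75.8 and 89.0 in brown and 46.0 and 40.6 in white adipose, and outside these tissues only in kidney (2.25 and 48.9). These sites were picked after their values were seen, the one 458 bp upstream by its motif, and were not tested.

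Regions downstream of Slc2a4 lie at the start of Ybx2, a gene of germ cells, and cannot be given to either gene. A region whose summit is 1141 bp from the Ybx2 start was 60.8 points higher in muscle, heart and adipose tissues, and another at 417 bp was 52.6 points higher (exact permutation test over 70 choices, two-sided p = 0.0286 for each). Across all merged regions 1.76% were higher and 1.11% lower by this test, with a smallest BH value of 0.952.

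Slc2a9 (chr5:38349273-38503143, minus strand) had a lower promoter percentile in muscle than elsewhere and was open at different starts in different tissues. Its values were 81.3 in fed and 74.2 in fasting muscle, 89.4 and 90.8 in white adipose, 92.5 and 91.1 in brown adipose and 90.9 and 91.8 in heart. They were 97.4 and 95.4 in spleen, 93.7 and 95.0 in liver, 92.9 and 91.0 in lung and 91.4 and 94.0 in kidney. The muscle pair lay below all others and the spleen pair above all others. The 4 insulin-responsive tissues lay 6.08 points below the other 4 (exact permutation test, two-sided p = 0.0286, BH 0.432 over all genes), and by fold ranking the difference was 0.53 points in the other direction. The call was lost without muscle (-2.76 points, exact p = 0.0571), liver (-5.92, exact p = 0.143), spleen (-5.23, exact p = 0.171), lung (-6.71, exact p = 0.0857) or kidney (-6.46, exact p = 0.114). It was also lost with a q-value under 1e-06 (-14.3 points, exact p = 0.0857). By the test of these 4 tissues, 3.82% of all genes were higher and 2.79% lower. Liver and kidney did not pass the test (3.61 points, exact permutation p = 0.464).

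Of the 12 annotated starts of Slc2a9, an inner one 22906 bp from the first base of the gene had a peak in every tissue, from 74.2 in fasting muscle to 97.4 in fed spleen. The outermost start was seen in liver, with 88.4 and 82.6 at 35 bp upstream of it (34 and 44 tags), and otherwise only in fed brown adipose at 0.83. A start 11236 bp further in was likewise a liver site, at 90.2 and 93.4, against 4.01 and 0.18 in kidney. Adipose tissues had their own site 1204 bp upstream of the outermost start, with 92.5 and 91.1 in brown and 79.2 and 90.0 in white adipose, and 61.5 or less elsewhere. Kidney had intronic sites of its own 36213 and 114676 bp into the gene (86.2 and 75.9, then 81.0 and 84.5) that no other library listed, and a site 6263 bp from the start at 89.4 and 83.6, where fed liver had 64.0 and fed white adipose 24.3. A site 3396 bp from the start was listed in fed white adipose (89.4, with 163 tags) and in no other library. The epididymis list was also high in that library, and its part was not tested.

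**Figure D3:**
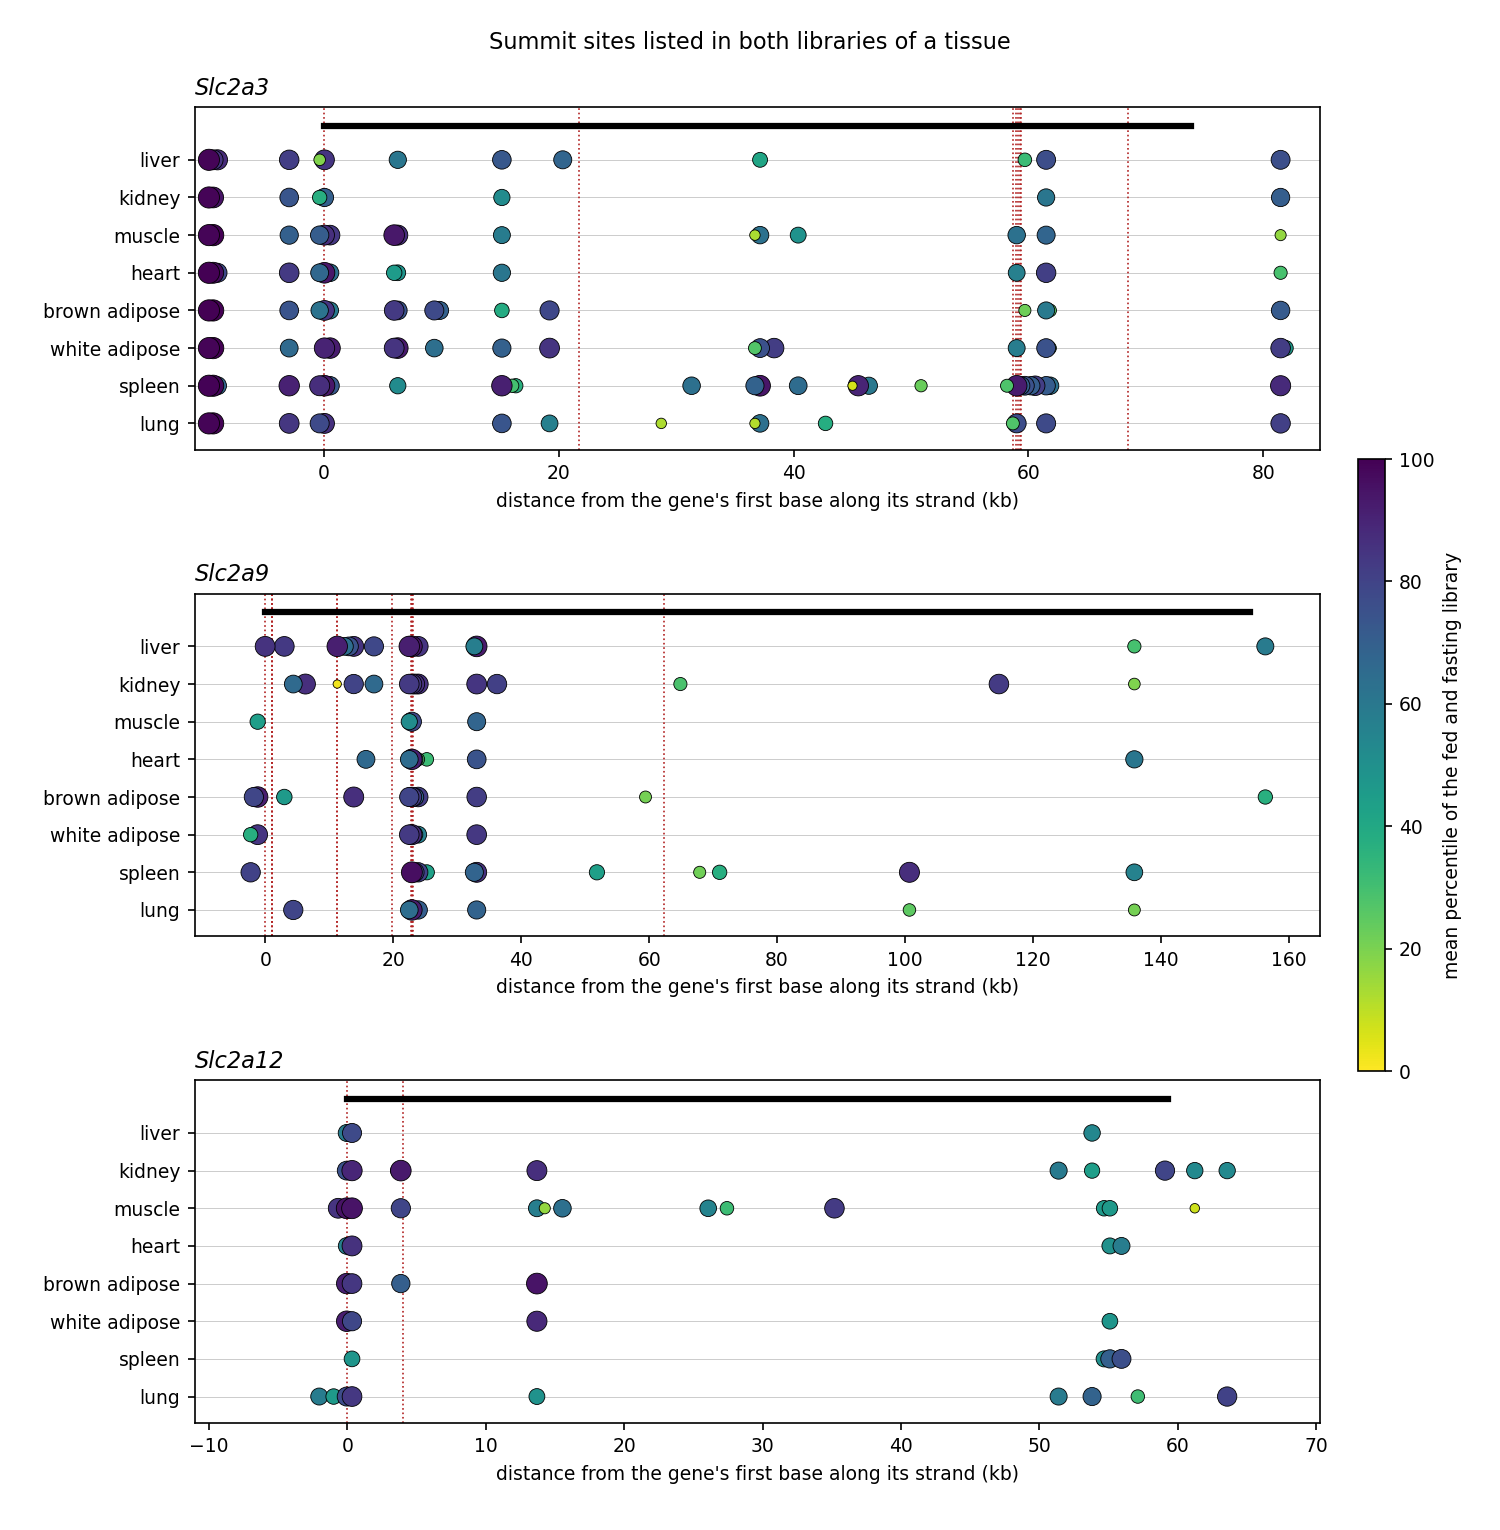
Summit sites in the extended bodies of Slc2a3, Slc2a9 and Slc2a12 by distance from the first base of the gene (kb, x axis) and by tissue (y axis), drawn as a dot where both libraries of a tissue list the site, with size and colour for the mean percentile and dotted lines for annotated starts. At Slc2a9 the inner start 22906 bp from the first base is filled in all 8 tissues and the outermost start in liver.

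Slc2a12 (chr10:22645011-22704285, plus strand) was strongest in muscle, kidney and adipose tissues. Its promoter percentile was 95.3 in fed and 95.1 in fasting muscle, 94.5 and 92.0 in kidney, 90.8 and 92.9 in white and 89.9 and 92.4 in brown adipose. It was 81.2 and 90.5 in heart, 81.6 and 86.3 in lung, 86.0 and 68.9 in liver and 24.9 and 70.6 in spleen. The muscle pair lay above all others and the spleen pair overlapped only with liver. Insulin-responsive tissues were 15.4 points higher, which did not pass the test (exact permutation test, two-sided p = 0.143).

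In kidney the strongest Slc2a12 promoter site lay elsewhere, 3870 bp from the first base, 127 bp upstream of an internal start, at 94.5 and 92.0 with 211 and 173 tags. The same site had 81.4 and 77.4 in muscle and 65.8 and 74.8 in brown adipose, and was not listed in liver, heart, lung or white adipose. At the start of the gene kidney had 75.9 and 74.7 where muscle had 95.3 and 95.1. A site in an intron 13701 bp from the start was highest in brown (95.8 and 94.0) and white adipose (93.1 and 83.5) and kidney (89.5 and 83.4), and had 63.7 or less elsewhere. Sites 653 bp upstream (84.7 and 85.0) and 35197 bp downstream of the first base (87.3 and 77.8) were listed in muscle alone.

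Slc2a1 (chr4:119108711-119137983, plus strand) had the narrowest range of the 9 genes, with a lowest value of 93.6 in fasting liver, a median of 96.6 and a highest value of 97.8 in fasting spleen. Its fed and fasting values were 96.5 and 97.8 in muscle, 97.5 and 93.6 in liver, 97.5 and 96.7 in white adipose and 94.9 and 96.5 in brown adipose. They were 96.9 and 94.8 in kidney, 97.1 and 95.4 in lung, 97.8 and 97.8 in spleen and 95.9 and 95.6 in heart. Spleen lay above the rest, and the ranges of the other neighbours in the order overlapped. Single sites, in the promoter window and beyond it, differed more.

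Away from the start, muscle, liver and spleen each had a strong Slc2a1 site. The muscle site 6355 bp upstream stood at 91.2 and 93.2, with 129 and 291 tags, and no other library listed it. The liver site 10819 bp into the gene stood at 94.6 and 97.5 and had no summit within 150 bp in other libraries, although the merged region there reached 16.9 in fed muscle. The spleen site 18686 bp into the gene, with the PU.1 pair, had 98.9 and 98.4, and lung followed with 88.7 and 77.4, while the remaining tissues had 63.9 or less. The site 2800 bp upstream of the start, inside the promoter window, was shared by all tissues except muscle, where only the fed library listed it, at 16.9, against 96.2 and 96.9 in spleen. An intron site 12664 bp from the start was highest in brown (91.8 and 92.5) and white adipose (89.4 and 92.9) and was not listed in spleen.

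Slc2a8 (chr2:32972990-32982083, minus strand) was open at a single position in all libraries, with its strongest summit 100 bp upstream of the gene. Its percentile was lowest in kidney (92.3 and 94.1) and liver (94.5 and 93.2) and highest in white adipose (97.3 and 98.9). Heart had 95.9 and 94.5, muscle 96.7 and 95.2, brown adipose 95.6 and 97.3, spleen 96.1 and 97.4 and lung 96.6 and 97.0. Liver and kidney lay 3.05 points below the other tissues (exact permutation test, two-sided p = 0.0357, BH 0.243 over all genes), where 11.9% of all genes were lower. All but the lowest of the other libraries lay above their range. The call was lost by fold ranking (-2.42 points, exact p = 0.179), within the q-value set (-3.23 points, exact p = 0.0714), with a q-value under 1e-06 (-5.60 points, exact p = 0.357) and after thinning to equal depth (-0.42 points, exact p = 0.964).

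The promoter percentile of Slc2a5 (chr4:150119283-150144169, plus strand) mixed several starts. Its fed and fasting values were 92.3 and 92.9 in liver, 93.6 and 90.3 in spleen, 84.7 and 91.8 in white and 82.2 and 89.6 in brown adipose. It was 84.2 and 85.0 in kidney, 84.8 and 82.8 in muscle, 80.9 and 83.0 in heart and 80.2 and 81.7 in lung. No neighbours in this order stood apart from each other. In 9 libraries the strongest peak was 17573 to 17622 bp into the gene, 2447 bp upstream of an internal start, at a site open in all tissues. The merged region at the first start stood at 87.6 and 86.0 in spleen, 84.2 and 85.0 in kidney and 82.2 and 88.4 in brown adipose, and at 65.3 or less elsewhere. Within it, a site 658 bp from the first base stood at 82.2 and 83.7 in kidney and 82.2 and 88.4 in brown adipose, and was listed elsewhere only in fasting white adipose (56.9). Liver had its own site at an internal start, 9501 bp into the gene (86.3 and 92.9), where kidney had 66.3 and 75.6 and heart 60.6 and 62.1. Kidney also had a site 4615 bp upstream (83.5 and 89.2) that otherwise appeared in fed liver alone (51.5). The first start lies next to that of a long noncoding RNA, Gm13093, and the DNA cannot be assigned to either.

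Within a tissue, the tissue pattern of the fed pools was compared with that of the fasting pools. For Slc2a2 the fed and fasting value of the same tissue differed by a mean of 7.65 points, against 45.5 points over all pairings of fed with fasting libraries. The same was 12.7 against 36.8 points for Slc2a10, 1.75 against 7.76 for Slc2a3, 2.32 against 5.21 for Slc2a9, 10.5 against 15.3 for Slc2a12 and 3.08 against 5.28 for Slc2a5. These 6 genes passed the exact pairing test over 40320 pairings (one-sided p between 0.0004 and 0.0449), and 4 of them, Slc2a2, Slc2a3, Slc2a9 and Slc2a10, had a BH value over all genes under 0.05, as had 9125 of the 19718 genes. Slc2a1 (p = 0.525), Slc2a4 (p = 0.154) and Slc2a8 (p = 0.067) did not pass this exact test. Across all genes 58.8% passed, so 6 of 9 was close to the background.

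Between fasting and fed pools no transporter promoter passed the test over tissues. None of the 9 genes passed the exact sign-flip permutation test over 8 tissues (two-sided, smallest possible p 0.0078), neither before adjustment nor after it (BH 1.0 for each), while 2.43% of genes were higher and 2.26% lower in fasting at an unadjusted p under 0.05, and no gene had a BH value under 0.05. The median difference over the 9 genes was -0.73 points and over all genes 0.02 points. Slc2a3 came nearest, at -1.57 points (SD 2.38, n = 8 tissues, exact p = 0.0859, lower in 6 of 8), followed by Slc2a4 at -1.52 points (SD 2.28, n = 8, exact p = 0.0938, lower in 6 of 8). Slc2a4 passed when regions were ranked within the q-value set (-2.01 points, exact p = 0.0156), after thinning to equal depth (-4.88 points, exact p = 0.00781) and without brown adipose (-1.93 points, exact p = 0.0312), and was at 1.57 points in the other direction by fold ranking. Slc2a3 passed after thinning (-8.29 points, exact p = 0.0312) and without heart (-1.87 points, exact p = 0.0469). With the 1000 bp window Slc2a3 was further from passing (-1.11 points, exact p = 0.406). Its values in fed spleen, fed lung and fasting kidney came from a peak near the 3000 bp edge of the promoter window. The other state of these tissues took its value at the start, so these differences compare peaks at different positions. Slc2a1 was at -0.73 (SD 1.82), Slc2a8 at 0.30 and Slc2a9 at -0.77 (SD 3.07). The other 4 genes had a larger spread, with an SD of 3.82 for Slc2a5, 12.9 for Slc2a2, 18.0 for Slc2a12 and 20.3 for Slc2a10.

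**Figure D4:**
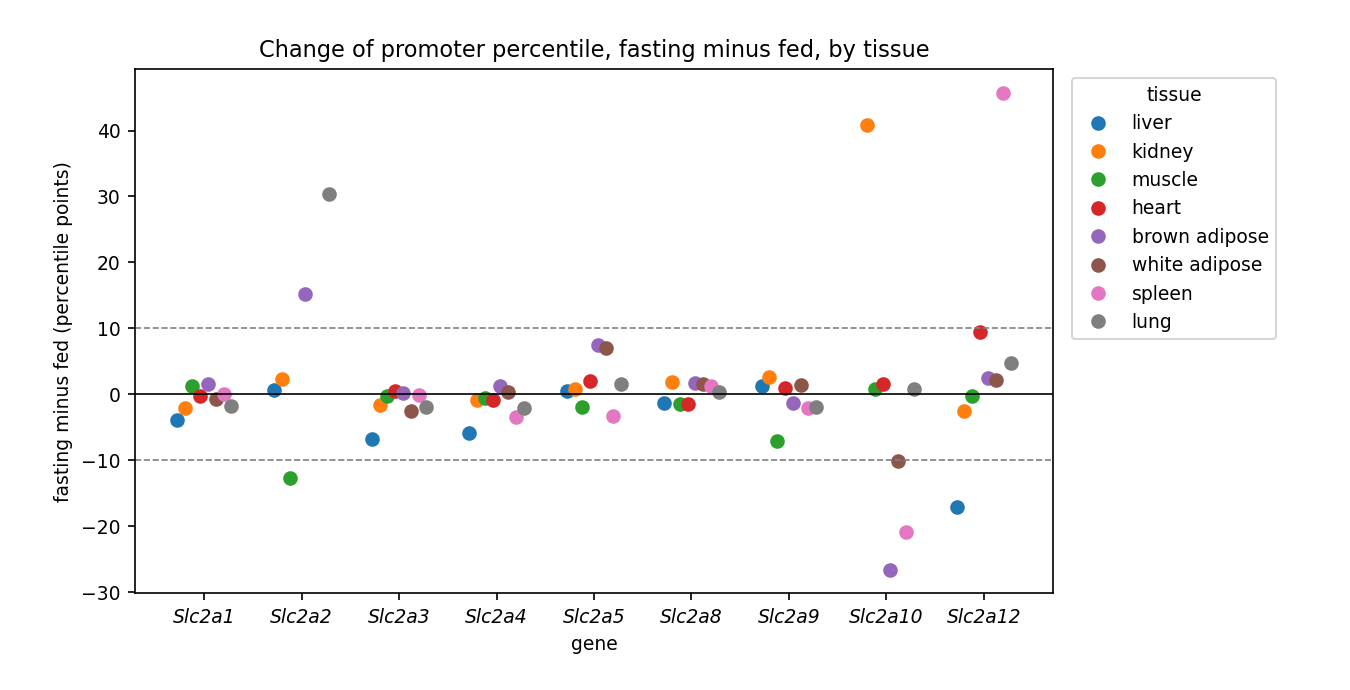
Fasting minus fed promoter percentile (points, y axis) of each gene (x axis) in each tissue (colour), 1 pool per state, for tissues with a peak in either state. Dashed lines mark 10 points; 9 of the 68 dots lie beyond them, all of them of Slc2a2, Slc2a10 or Slc2a12.

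Single tissues moved more. Of the 68 pairs of gene and tissue with a promoter peak in either state, 9 differed by 10 points or more, 4 upward and 5 downward, and all belonged to Slc2a2, Slc2a10 or Slc2a12. Over all genes 7.57% of such pairs were higher and 8.41% lower. There is no replicate, so no test was made of a single tissue.

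Slc2a12 in spleen had the largest of these, from 24.9 fed to 70.6 fasting, but it rested on 12 and 18 tags at different positions. Slc2a10 in kidney went from no listed peak to 40.8, with 23 tags, where the fed library needed 16 tags to list a peak at background. Slc2a2 in lung went from 32.1 (30 tags) to 62.4 (38 tags, at a lower background) and in brown adipose from no listed peak to 15.2 (16 tags). Slc2a10 in brown adipose had 51.6 (72 tags, 5.30-fold) in the fed and 25.0 (17 tags, 2.32-fold) in the fasting pool, with a background of 12.8 against 6.76 tags. In spleen it went from 65.3 to 44.4 on 16 and 14 tags, and in white adipose from 90.4 (164 tags) to 80.2 (40 tags). Slc2a12 in liver went from 86.0 (26 tags) to 68.9 (19 tags), and Slc2a2 in muscle from 93.2 (153 tags) to 80.6 (101 tags).

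The share over all genes differed between tissues, and the transporter counts lay on either side of it. At least 10 points separated the states at 23.1% of genes in liver (1 of 8 transporter genes), 11.7% in muscle (1 of 9), 14.8% in brown adipose (2 of 9) and 18.2% in white adipose (1 of 8). The share was 19.3% in spleen (2 of 8), 18.7% in heart (0 of 8), 11.4% in lung (1 of 9) and 9.27% in kidney (1 of 9).

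Merged regions, the union of the q-value sets of the 16 libraries, were counted over the extended gene bodies. The 9 genes held 324 of them, from 15 at Slc2a8 to 86 at Slc2a9, whose body of 153871 bp is the longest. Of the 324, 144 were in the set of 1 library alone, 15 in all 16 sets, and 24 lay in the promoter window of a protein-coding gene that is not among the 9. In both sets of a single tissue with no listed peak elsewhere were 32 regions, 9 of spleen, 6 each of kidney and muscle, 5 of liver, 3 of lung, 2 of heart and 1 of brown adipose. None was particular to white adipose in this way. Of the 7 at Slc2a3, 6 were of spleen and 1 of liver, and of the 6 at Slc2a12, 4 were of muscle.

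**Figure D5:**
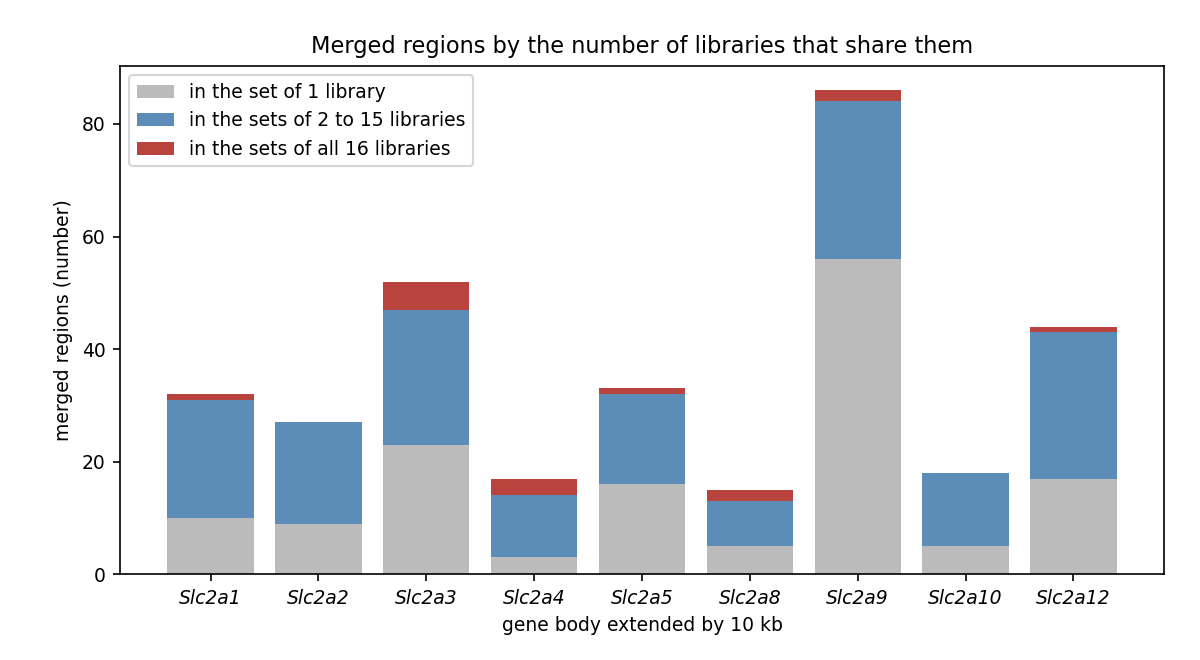
Number of merged regions (y axis) in the extended body of each gene (x axis), split by whether they belong to the set of 1 library, of 2 to 15 or of all 16. Slc2a9 has 86 regions with 56 in 1 library, and Slc2a4 has 17 with 3 in all 16.

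The 180 regions that lay in at least 2 sets were tested. In liver and kidney against the other 6 tissues, 24 were higher and 4 lower at an unadjusted p under 0.05 (exact permutation test), where 5.15% and 1.31% of all merged regions were. A region found in the sets of liver and kidney alone entered the test only through being listed there, so this count is a description and supports nothing. In the muscle, heart and adipose contrast 5 were higher and 1 lower, where 1.76% and 1.11% of all merged regions were, with the same limit. Besides those at Ybx2 and the Slc2a4 promoter, a region 2433 bp from the start of Slc2a7, downstream of Slc2a5, stood at 92.3 and 96.3 in brown and at 57.7 and 78.5 in white adipose and was 47.4 points higher (exact permutation test, two-sided p = 0.0286).

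Between states 4 regions were higher and 1 lower in fasting (exact sign-flip permutation test, BH 1.0 for each), where 0.943% of all merged regions were higher and 0.519% lower. The largest was in an intron of Slc2a1, 16982 bp from the nearest start, with a mean of 15.7 in fed and 46.0 in fasting libraries, higher in all 7 tissues that listed it (exact two-sided p = 0.0156). In liver, muscle, brown adipose and heart the fed library listed no peak there, and the fasting one had 80.2, 37.0, 1.31 and 65.0. Both states listed it in white adipose (43.7 and 59.7), spleen (15.9 and 51.8) and lung (66.3 and 73.2). Next came an intron region of Slc2a3, 2480 bp from an internal start, at 26.0 against 41.7, higher in 6 of 6 tissues (p = 0.0312, same exact test). There the fed libraries of liver, muscle and heart had no listed peak. A second Slc2a1 intron region, 10086 bp from the nearest start, was 13.4 points higher (p = 0.0312, exact). A region downstream of Slc2a8, 4623 bp from the start of Rpl12, was 2.03 points higher (p = 0.0312, exact). The region that was lower lay in an intron of Slc2a9 and fell by 17.5 points (p = 0.0469, exact). At Slc2a2, Slc2a4, Slc2a5, Slc2a8, Slc2a10 and Slc2a12 the region with the largest difference had between -13.0 points (Slc2a12) and 17.2 points (Slc2a10) and did not pass.

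Some peaks of fed white adipose were not listed in fasting white adipose, such as a site 7546 bp upstream of Slc2a8 (83.3) and a site 20047 bp into Slc2a5 (84.7). Over the same pair of libraries the epididymis list went from 75.6 to 31.7, and its part in these sites was not tested.

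The rest of the family and the genes around glucose uptake were tested in the same way. Slc2a6, Slc2a7 and Slc2a13 passed no test between tissue groups or between states, and all 3 passed the exact pairing test (p = 0.0032, 0.0125 and 0.0056), as did 10 of 16 genes of glucose handling and 8 of 10 of Slc2a4 trafficking, where 58.8% of all genes did. Among 16 genes of glucose handling, Txnip, which restrains glucose uptake, was the only one higher in fasting, by 3.60 points (exact sign-flip p = 0.0469, higher in 6 of 8 tissues, BH 0.999 over all genes). G6pc, which releases free glucose from glucose-6-phosphate, was 78.5 points higher in liver and kidney, and Hk2 (-24.0), Hk1 (-8.41) and G6pc3 (-5.70) were lower (exact permutation test, p = 0.0357 and BH 0.243 over all genes for each). By this test 2.79% of all genes were higher and 11.9% lower in liver and kidney. Slc5a1, a sodium-coupled glucose transporter, had 61.0 points more there without passing (p = 0.0714, exact). Hk3, a hexokinase of white blood cells, was at -28.4 points in the insulin-responsive tissues against the rest (exact p = 0.314). The mean fasting minus fed difference was -7.88 for G6pc, -6.36 for Hk3 and 5.93 for Slc5a1, none past the test. For G6pc the largest difference was that of white adipose, with 82.9 in the fed and no listed peak in the fasting library. Liver stood at 88.1 and 88.0 and kidney at 89.1 and 84.6, and heart had a peak in the fasting library alone (24.4). The part of the epididymis list in the white adipose value was not tested.

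Among 10 genes of Slc2a4 trafficking, Aspscr1, which tethers the Slc2a4 storage vesicles, and Akt2, the kinase that acts on them after insulin, were 2.74 and 2.61 points higher in muscle, heart and adipose tissues (exact permutation test, two-sided p = 0.0286, BH 0.432 over all genes). By this test 3.82% of all genes were higher and 2.79% lower. Akt2 was also lower in liver and kidney (-3.06 points, exact p = 0.0357, BH 0.243 over all genes), where 11.9% of all genes were lower. Vamp2 (-4.31), Sort1 (-3.98) and Tbc1d4 (2.90) had the other large differences there and did not pass. Between states no gene of the list passed, and the largest differences were -0.87 for Sort1, 0.51 for Vamp2, -0.50 for Insr and -0.27 for Tbc1d1.

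Promoters of other genes with the most similar profile over the 16 libraries were sought for the 3 transporters whose percentile varied by an SD of at least 10, among 7240 genes with as much variation. Slc2a2 was most like Ces2c (Pearson r = 0.92), Sel1l3 (0.88) and Lrrc18 (0.87). Slc2a10 was most like Acvrl1 (0.93), Map6 (0.89) and Tex26 (0.89), and Slc2a12 like Nfib (0.94), Rorb (0.93) and Mpdz (0.93). The 16 libraries share mice and differ in depth, and many genes were searched, so these values only describe the order.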

How the data were processed

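The authors made nuclei from pooled frozen tissue powder, aligned ATAC-seq reads to GRCm38 with Bowtie2 and called peaks with MACS2, 1 list per library. The deposited lists give a fold ratio over background, a -log10 p-value and a -log10 q-value for each peak; read counts were not used here, and tag numbers were recovered from these columns. Peaks with identical coordinates counted as 1 region and kept the smallest p-value. A promoter took its strongest region within 3000 bp of any GENCODE vM21 start. Percentiles were computed within each list. Tests were exact permutations over tissues with BH adjustment over all 19718 genes with a promoter peak or all 379519 regions in at least 2 sets, in Python 3.11.15 with pandas 2.3.3 and scipy 1.17.1, and were tested on simulated data. Each library is 1 pool, so the p-values treat tissues of the same mice as units. The intervals of single values cannot be given. The named genes are the 9 members, the listed genes with the largest differences, the 3 most similar promoters, and the strongest, tissue-particular and most shifted regions. A listed gene that the rule would name is not reported here. Members and lists were chosen with earlier results of these data known. The summit sites (150 bp to either side) and the printed sequences were chosen after their values were seen. The upstream sequence of Slc2a4 was chosen because it holds the MEF2 core. Alternatives were fold ranking, a 1000 bp window, coding starts, stricter q-values (1e-06), equal depth, all summits, 50% overlap, 20 points and leaving out each tissue.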

Additional observations from a re-analysis of the deposited data

Results flagged for a closer look

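The fasting minus fed difference in promoter percentile had opposite signs in 2 tissues for 3 genes. Each rests on 1 pool per state, and the difference between the tissues was not tested. Slc2a2 differed by 30.35 points in lung, at a site near an internal start, and by -12.69 points in muscle, at a site upstream of the gene. Slc2a10 differed by 40.81 points in kidney, where the fed pool had no listed peak, and by -26.59 points in brown adipose. Slc2a12 differed by 45.72 points in spleen, on 12 and 18 tags, and by -17.05 points in liver, on 26 and 19 tags.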

How the results depend on the processing

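The 7 genes open in all libraries ranged from 5 to 7 over the alternatives and the 6 genes that passed the pairing test from 4 to 7. For the other counts the cause of a change was not tested. The count of genes that differed between states was 0 and became 1 within the q under 0.01 set, 1 with q under 1e-06 and 2 at equal depth, with 0 to 1 when a tissue was left out (1 without brown adipose or without heart). The 2 genes that differed between muscle, heart and adipose tissues and the rest became 1 by fold ranking, 1 within the q under 0.01 set, 0 with q under 1e-06 and 1 at equal depth, with 0 to 2 when a tissue was left out (0 without muscle, 1 without liver, brown adipose, white adipose, spleen, heart or lung). The 4 genes that differed in liver and kidney, 1 higher and 3 lower, became 1 by fold ranking, 2 with q under 1e-06 and 1 at equal depth. Of all genes 2.79% were higher and 11.9% lower in liver and kidney. In muscle, heart and adipose tissues 3.82% of all genes were higher and 2.79% lower. Leaving out liver or kidney could not reach 0.05 and was not run for the liver and kidney contrast. The 9 shifted pairs became 14 with q under 1e-06, 17 at equal depth and 5 at 20 points, with 7 to 9 when a tissue was left out. The 324 regions became 175 with q under 1e-06. Region calls between states went from 5 to 2 with 50% overlap and 3 by fold ranking, those of muscle, heart and adipose tissues from 6 to 2 and those of liver and kidney from 28 to 17 with 50% overlap. By fold ranking, Slc2a4 reversed to 1.57 (state) and -8.17 (muscle, heart and adipose), Slc2a9 to 0.53 (muscle, heart and adipose) and Slc2a10 to 0.88 (state). At equal depth, Slc2a4 reversed to -0.25 (muscle, heart and adipose), and between states Slc2a5 to -6.28, Slc2a10 to 0.54 and Slc2a12 to -0.38. Between states Slc2a5 also reversed to -2.53 with coding starts, Slc2a8 to -0.21 and Slc2a12 to -0.31 with q under 1e-06, and Slc2a9 to 0.11 with the 1000 bp window and 0.13 without muscle. With a tissue left out the state difference ran from -1.25 to 0.13 for Slc2a9, from -7.80 to 1.82 for Slc2a10 (1.82 without brown adipose, 1.02 without spleen) and from -0.15 (without spleen) to 8.81 for Slc2a12. A fit with a replicate block could not be made, since the labels carry no replicate numbers. The tests between states pair the libraries by tissue.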

Other observations

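At Slc2a3 a pair of sites outside its promoter was strong. Upstream of Slc2a3 and 8822 bp from the start of Foxj2, a site stood at 94.2 or higher in every library outside liver, and at 78.6 and 91.6 in fed and fasting liver. In an intron of Slc2a3, 37135 bp from the outermost start, spleen had 95.5 and 93.3 and every other library 81.0 or less. The merged region at the former was 0.63 points higher in muscle, heart and adipose tissues (exact permutation test, two-sided p = 0.0286, BH 0.952 over all regions), and the latter was not tested as a site.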
